A study of Arabidopsis thaliana with 18 samples.

Results

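The aquaporins of Arabidopsis thaliana are a family of 35 genes: 13 plasma membrane intrinsic proteins (PIP), 10 tonoplast intrinsic proteins (TIP), 9 NOD26-like intrinsic proteins (NIP) and 3 small basic intrinsic proteins (SIP). They were followed by locus identifier through root transcript tables that list 33602 loci, and all 35 were found there. Of them, 29 averaged at least 1 FPKM (mapped fragments scaled to transcript length and library size) over the 18 libraries and were tested: all 13 PIP, 7 TIP, 6 NIP and all 3 SIP. Roots of wild-type plants were collected after 14 days on agar medium that held bisphenol A (BPA), the plastics monomer, or one of its analogs BPB, BPE, BPF or BPS. Control plants grew on medium with the solvent DMSO and no bisphenol. Each of the 6 groups had 3 libraries. Growth at 1, 3 and 10 mg/L is described, but the dose behind each library is not given, and compounds may differ in dose. Separate plates or plants are not stated for the 3 libraries of a group, so the p-values reflect a spread that may be technical.

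Aquaporins are membrane channels in which a pair of short loops with the residues asparagine, proline and alanine (NPA) meet in the middle of the pore. PIP proteins carry most of the water that crosses the plasma membrane of root cells, and those of the PIP1 group reach that membrane mainly when paired with a PIP2 partner. TIP proteins sit in the vacuole membrane, where some also pass ammonia, urea or hydrogen peroxide. NIP proteins pass small uncharged molecules such as boric acid, arsenite, glycerol or lactic acid, and SIP proteins lie in the endoplasmic reticulum.

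From the steps between low values, 15860000 to 22140000 mapped fragments were recovered per library. A level of 1 FPKM on 1.5 kb of transcript thus corresponded to 23.8 to 33.2 fragments. All 6 root identity markers passed the filter, among them the quiescent centre gene WOX5 and the phosphate exporter PHO1. Genes of photosynthetic shoot tissue were present as well. Of 12 such markers 11 passed the filter, CA1 was the one that did not, and their summed level was 243 to 433 FPKM in BPA roots, 476 to 481 in BPB, 223 to 281 in BPE, 108 to 257 in BPF and 154 to 378 in BPS, against 51.4 to 139.6 in control roots. Replicate 3 of BPA, of BPB and of BPS had the lowest mean correlation to the other libraries of its group, at 0.949, 0.911 and 0.939 on the log2 scale. Control libraries had 0.979 to 0.985, also lowest in replicate 3. The other libraries of the 3 compounds had 0.962 and 0.969 in BPA, 0.939 and 0.949 in BPB, and 0.946 and 0.957 in BPS, where the gap was thus small.

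The coding sequences show a motif that most of the family shares. In frame, codons for the NPA motif were searched as AACCCNGCN or AATCCNGCN on the coding strand, where N is any base. At least 2 such boxes were found in all 13 PIP, all 10 TIP, 4 of 9 NIP and 0 of 3 SIP, against 78 of 27370 protein-coding loci (0.285%) of the reference genome. The boron channel NIP5;1 held none. The second box of 5 members is shown 5′ to 3′ from RefSeq on the build TAIR10.1, with the box in capitals. These 5 genes share the box but had unlike transcript levels under the bisphenols, and their pores were not compared.
PIP2;1, chr3:19804158-19804190, minus strand: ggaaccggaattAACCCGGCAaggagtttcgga
PIP2;5, chr3:20303455-20303487, plus strand: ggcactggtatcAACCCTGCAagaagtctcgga
TIP2;1, chr3:5506612-5506644, plus strand: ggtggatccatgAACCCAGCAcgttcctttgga
TIP2;2, chr4:9700074-9700106, plus strand: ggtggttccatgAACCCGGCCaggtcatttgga
NIP2;1, chr2:14514791-14514823, minus strand: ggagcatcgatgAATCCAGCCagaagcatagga

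PIP transcripts, which code for the channels of the plasma membrane, summed above the control range in roots of all 5 compounds, while the other subfamilies differed by compound. The 5 PIP1 genes summed to 769 ± 109 FPKM in BPA roots, 1187 ± 133 in BPB, 659.9 ± 24.8 in BPE, 824 ± 179 in BPF and 1028 ± 26.2 in BPS, against 537 ± 81.3 FPKM in control roots (mean ± SD, n = 3 each). The 8 PIP2 genes summed to 1131 ± 92.2 FPKM in BPA, 1645 ± 148 in BPB, 964 ± 61.1 in BPE, 967 ± 194 in BPF and 1269 ± 41.1 in BPS, against 679.8 ± 50.8 FPKM in control roots. In both groups no library of any compound overlapped the control range. A sum need not hold for each gene, and the median log2 change of the 8 PIP2 genes was -0.10 in BPE. In BPE 0 of 5 PIP1 genes and in BPF 0 of 8 PIP2 genes were called (adjusted p below 0.05), against 14.3% and 1.39% of all loci. For the 10 TIP genes the sums were 1723 ± 357 FPKM in BPA, 2381 ± 704 in BPB, 1216 ± 92.9 in BPE, 1959 ± 205 in BPF and 2431 ± 178 in BPS, against 1491 ± 89.5 FPKM in control roots. BPE roots alone lay below the control range here, BPA roots overlapped it, and the other compounds lay above. The 9 NIP genes summed to 128 ± 18.9 FPKM in BPA, 181 ± 36.4 in BPB, 101 ± 9.14 in BPE, 178 ± 54.9 in BPF and 259 ± 49.6 in BPS, against 232 ± 35.7 FPKM in control roots, with BPA and BPE below the control range. The 3 SIP genes summed to 98.7 to 121 FPKM in the 5 compound groups on average, against 109.9 ± 3.11 FPKM in control roots, with BPA and BPE below the control range and BPS above it. In whole roots, fewer cells of a type and less RNA per cell cannot be told apart, and markers of other cell types moved too. Of 11 tested photosynthetic markers, 7 were called higher in BPA, 11 in BPB, 9 in BPE, 0 in BPF and 8 in BPS. Of all loci, 6.57% were called higher in BPA, 25.5% in BPB, 9.08% in BPE, 0.708% in BPF and 12.3% in BPS. The 7 endodermis markers summed to 321 to 376 FPKM in BPF and 332 to 411 in BPS, against 243 to 247 in control roots, with 4 called higher in BPS. Of 6 root hair markers 2 were called lower in BPA, 4 in BPB and 5 in BPE, and of 5 tested markers of dividing cells 2 in BPE. Called lower among all loci were 3.83% in BPA, 11.1% in BPB, 5.2% in BPE, 0.677% in BPF and 8.71% in BPS. Of 6 root identity markers, 1 was called higher in BPA, 2 higher and 1 lower in BPB, and 1 higher and 2 lower in BPS. Of 4 phloem markers, 1 was lower in BPA, 1 higher and 1 lower in BPB, and 1 lower in BPE. Of 5 xylem markers 0 were called against control in any compound. The part of any of these lists in the sums was not tested.

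**Figure D1:**
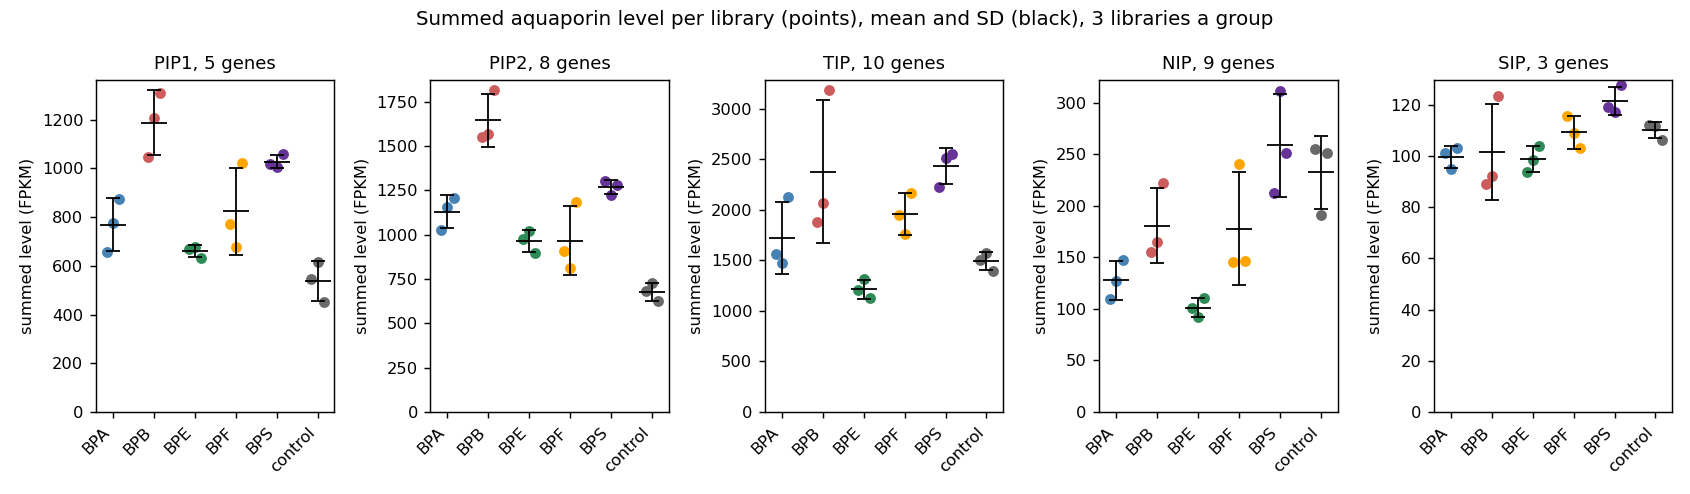
Summed FPKM of each aquaporin subfamily (vertical axes, each from 0) by group (horizontal axes, bisphenol groups left of control), with 1 point per library and the mean and SD of 3 libraries in black. PIP1 and PIP2 sums lay above the control range in all 5 bisphenol groups, TIP sums were below it in BPE, and NIP sums were below it in BPA and BPE.

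On the scale of single genes, BPA roots had 7 members higher and 2 lower than control roots at an adjusted p below 0.05, which is 9 of 29 or 31.0%, against 10.4% of all loci (6.57% higher and 3.83% lower), with 19484 loci tested. BPB roots had 13 higher and 2 lower (51.7%), against 36.6% of all loci (25.5% higher and 11.1% lower). After the libraries were scaled to a common median, which moved the median log2 change of all loci from 0.16 to -0.02 in BPB, the same number of members was called, 10 higher and 5 lower. BPE roots had 4 higher and 6 lower (34.5%), against 14.3% of all loci (9.08% higher and 5.2% lower). BPF roots had 2 higher and 0 lower (6.90%), against 1.39% of all loci (0.708% higher and 0.677% lower), and 13 members had an unadjusted p below 0.05. BPS roots had 13 higher and 2 lower (51.7%), against 21% of all loci (12.3% higher and 8.71% lower). Without replicate 3 of BPA, BPB and BPS, the libraries of lowest correlation in those groups, BPA had 7 members higher and 7 lower and BPF had 7 higher and 2 lower. The share of all loci called in that rerun is not given here, so these counts are not shown to be particular to the family. The median log2 change of the 29 members was 0.11 in BPA, 0.34 in BPB, -0.07 in BPE, 0.29 in BPF and 0.59 in BPS, where all loci had medians of 0.04, 0.16, 0.04, 0.01 and 0.09 in that order. Members whose 3 compound libraries did not overlap the 3 control libraries numbered 16 of 29 in BPA, 17 in BPB, 19 in BPE, 11 in BPF and 22 in BPS. Of all loci, 34.8% did not overlap in BPA, 48.9% in BPB, 46.3% in BPE, 28.7% in BPF and 38% in BPS. The 5 comparisons share the 3 control libraries, so their results are not independent of each other. Without control replicate 1, control replicate 3 or BPA replicate 2 the count in BPA was 5. In BPE it was 6 without control replicate 1 or BPE replicate 1, 5 without BPE replicate 2 and 4 without control replicate 3. In BPF 0 members were called without control replicate 1, control replicate 3 or BPF replicate 3, and 1 without control replicate 2. In BPS 9 were called without control replicate 3. Shares of all loci in these reruns and after median scaling are not given here, so the counts are not shown to be particular to the family.

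**Figure D2:**
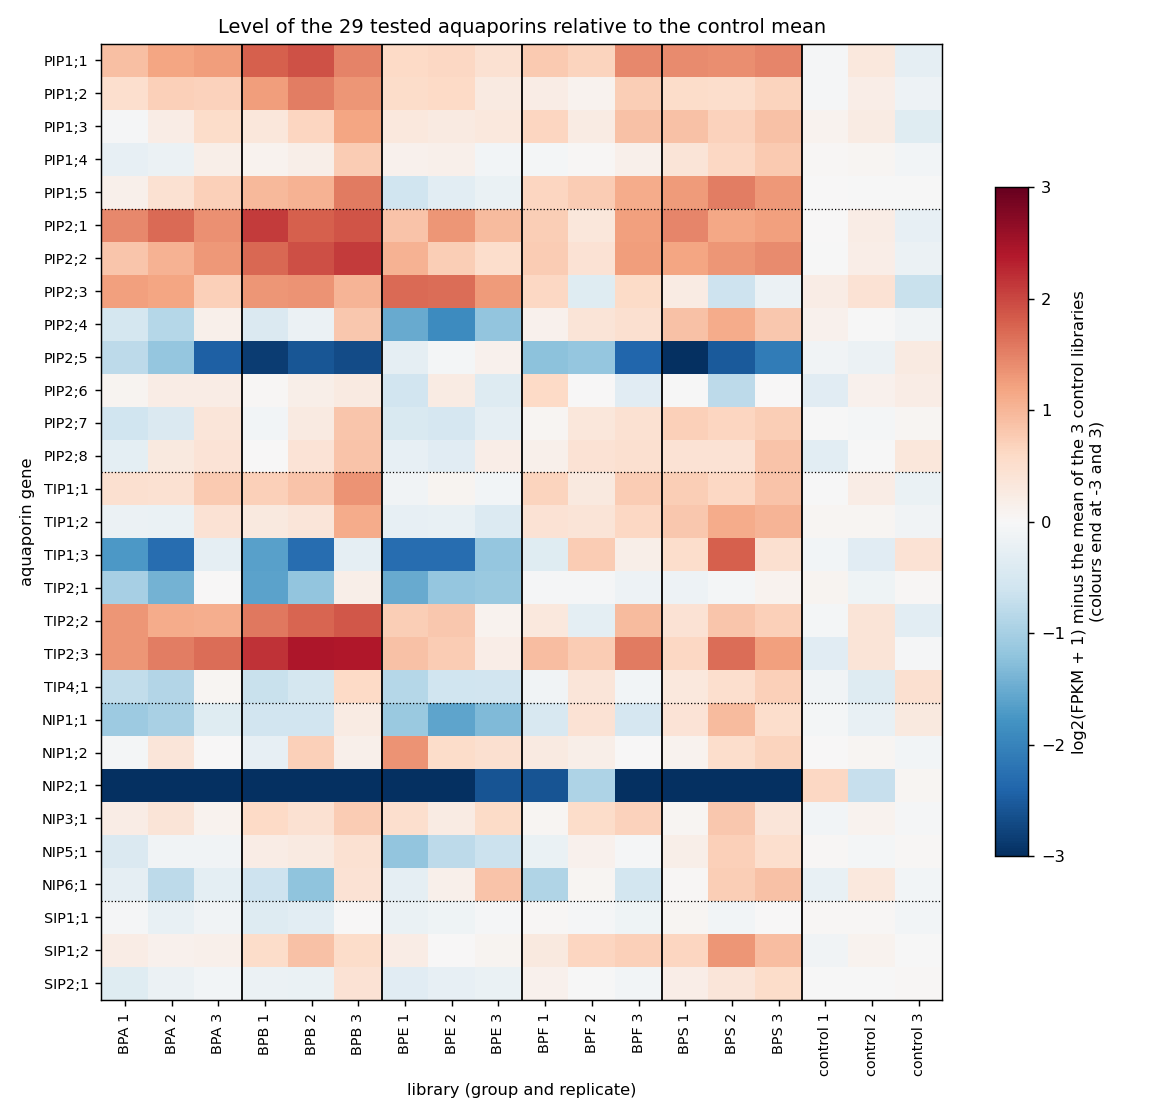
Level of each of the 29 tested aquaporins (rows) in each library (columns, bisphenol groups left of control), as log2(FPKM + 1) minus the mean of the 3 control libraries, in red where above and in blue where below. NIP2;1 is dark blue in nearly all bisphenol libraries, PIP1;1 and PIP2;1 are red in all of them, and PIP2;5 is blue in BPA, BPB, BPF and BPS but near the control level in BPE.

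Of the PIP1 genes, PIP1;1 (AT3G61430, chromosome 3, 22733243 to 22735394, plus strand) was called in 4 comparisons. Its level was 149.7, 182 and 189 FPKM in BPA roots, 278, 299 and 223 in BPB and 119.7, 123 and 109 in BPE. BPF libraries showed 137, 127 and 216, and BPS libraries 212, 209 and 221, against 76.6, 99.0 and 65.1 in control roots. All 15 bisphenol libraries lay above the highest control library. On the log2 scale the change was 1.12 (95% interval 0.70 to 1.53, adjusted p = 0.00617) in BPA and 1.73 (95% interval 1.32 to 2.14, adjusted p = 2.88e-05) in BPB. In BPF it was 0.97 (95% interval 0.55 to 1.38, adjusted p = 0.0273) and in BPS 1.42 (95% interval 1.01 to 1.84, adjusted p = 0.000309) by limma. In BPE it was 0.56 (95% interval 0.15 to 0.97, adjusted p = 0.0639), short of the threshold, and it passed from the 6 libraries compared alone, without BPA, BPB and BPS replicates 3 together or without control replicate 2 (adjusted p = 0.0346 to 0.0482). The call in BPF was lost from the 6 libraries compared alone or without BPF replicate 3, control replicate 1 or control replicate 3 (adjusted p = 0.0731 to 0.174).

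PIP1;2 (AT2G45960, chromosome 2, 18910081 to 18911982, plus strand), a main contributor to the water conductivity of Arabidopsis roots, had 190.5, 218 and 215 FPKM in BPA, 321, 388 and 336 in BPB and 197, 201 and 160.2 in BPE. The level in BPF was 157, 142 and 224, and the level in BPS 197, 194 and 212, against 129.7, 153 and 119 in control roots. BPB libraries were the highest, and BPF was the one group that overlapped control. It rose by 0.63 (adjusted p = 0.0254) in BPA, 1.37 (adjusted p = 4.11e-05) in BPB and 0.59 (adjusted p = 0.0193) in BPS on the log2 scale. The BPA call was lost without BPA replicate 2, control replicate 1 or control replicate 3 (adjusted p = 0.101 to 0.114), and the BPS call without BPA, BPB and BPS replicates 3 together or without BPS replicate 3, control replicate 1 or control replicate 3 (adjusted p = 0.0523 to 0.0749). BPE passed, as higher, from the 6 libraries compared alone (adjusted p = 0.0427).

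PIP1;5 (AT4G23400, chromosome 4, 12220641 to 12222468, plus strand) separated the compounds within this group. Its level was 74.1, 91.2 and 109 FPKM in BPA, 131, 138 and 197 in BPB and 43.4, 52.9 and 57.4 in BPE. For BPF it was 104, 113 and 144, and for BPS 162, 195 and 163, against 67.2, 65.8 and 65.6 in control roots. All BPE libraries lay below the control range and all others above it. Limma gave a log2 change of 1.19 (95% interval 0.81 to 1.58, adjusted p = 0.000201) in BPB and 0.84 (95% interval 0.46 to 1.22, adjusted p = 0.0355) in BPF. For BPS it came to 1.37 (95% interval 0.99 to 1.75, adjusted p = 0.000258). In BPE it was -0.37 (95% interval -0.76 to 0.01, adjusted p = 0.169), not past the threshold. The BPF call was lost with no filter on low values or without BPF replicate 2, BPF replicate 3, control replicate 1, control replicate 2 or control replicate 3 (adjusted p = 0.0504 to 0.24).

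The most abundant PIP1 transcript, PIP1;3 (AT1G01620, chromosome 1, 225665 to 227543, minus strand), had 214, 257 and 323 FPKM in BPA, 280.2, 344 and 496 in BPB and 273, 264 and 273 in BPE. BPF roots had 342, 259.8 and 402, and BPS roots 404, 358 and 403, against 237, 261 and 171 in control roots. BPA and BPF overlapped control, and it rose by 0.72 (adjusted p = 0.0204) in BPB and 0.82 (adjusted p = 0.0184) in BPS on the log2 scale. The first of these calls was lost after median scaling, from the 6 libraries compared alone, without BPA, BPB and BPS replicates 3 together or without BPB replicate 3 or control replicate 3 (adjusted p = 0.0556 to 0.104), the second without BPS replicate 3 or control replicate 3 (adjusted p = 0.0513 to 0.0837). PIP1;4 (AT4G00430), which also passes carbon dioxide and hydrogen peroxide, had 44.4, 52.6 and 58.7 FPKM in BPS, against 34.5, 35.2 and 31.8 in control roots, without overlap, and rose by 0.59 (adjusted p = 0.0197) on that scale. That call was lost without BPS replicate 2, BPS replicate 3, control replicate 1 or control replicate 3 (adjusted p = 0.0552 to 0.0759). In the other groups the gene ran from 28.2 to 57.6 FPKM and was not called.

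PIP2;1 (AT3G53420, chromosome 3, 19803473 to 19805730, minus strand), a major water channel of root cells, had the highest PIP mean over all libraries. In control roots PIP1;3 had the higher mean, at 223 against 165 FPKM, and in BPF at 335 against 288. PIP2;1 had 443, 531 and 424 FPKM in BPA, 702, 574 and 609 in BPB and 299, 408 and 317 in BPE. In BPF it had 273, 207 and 384, and in BPS it had 452, 368 and 383, against 165, 192 and 138 in control roots. No bisphenol library overlapped the control range, and BPB libraries were the highest. In log2 units the change was 1.5 (95% interval 1.05 to 1.94, adjusted p = 0.00269) in BPA and 1.93 (95% interval 1.49 to 2.37, adjusted p = 2.22e-05) in BPB. BPE had 1.04 (95% interval 0.60 to 1.48, adjusted p = 0.00782) and BPS had 1.28 (95% interval 0.84 to 1.72, adjusted p = 0.000918). In BPF it was 0.77 (95% interval 0.32 to 1.21, adjusted p = 0.0802), short of the threshold, and it passed without BPA, BPB and BPS replicates 3 together (adjusted p = 0.0491). The BPE call was lost without control replicate 3 (adjusted p = 0.0528).

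PIP2;2 and PIP2;3 lie next to each other on chromosome 2 in opposite orientation, with 2612 bases between them (15613368 to 15615022, minus strand, and 15617635 to 15619155, plus strand). Their coding sequences were identical at 94.8% of 858 aligned bases, with a longest identical run of 242 bases, so fragments from such runs cannot be told apart and the 2 levels are uncertain to that extent. A stretch of 60 bases in which they differ at 10 positions, in capitals, shows where fragments can be assigned.
PIP2;2, chr2:15614198-15614257, minus strand: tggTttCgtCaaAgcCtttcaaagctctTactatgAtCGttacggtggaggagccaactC
PIP2;3, chr2:15618313-15618372, plus strand: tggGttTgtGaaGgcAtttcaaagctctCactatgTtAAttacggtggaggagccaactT

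PIP2;2 (AT2G37170), whose loss lowers the osmotic water flow of roots, had 242, 283 and 337 FPKM in BPA, 453, 529 and 592 in BPB and 284, 228 and 197 in BPE. BPF libraries showed 233, 185 and 329, and BPS libraries 314, 342 and 367, against 136, 156 and 120.5 in control roots. All bisphenol libraries lay above control. The log2 change was 1.05 (95% interval 0.62 to 1.49, adjusted p = 0.00874) in BPA and 1.92 (95% interval 1.49 to 2.36, adjusted p = 2.07e-05) in BPB. For BPE it came to 0.77 (95% interval 0.33 to 1.21, adjusted p = 0.0257) and for BPS to 1.31 (95% interval 0.87 to 1.75, adjusted p = 0.000735). BPF stood at 0.82 (95% interval 0.38 to 1.26, adjusted p = 0.0629) and passed after median scaling or without BPA, BPB and BPS replicates 3 together (adjusted p = 0.0283 to 0.0456). The BPE call was lost without BPE replicate 1, BPE replicate 2, control replicate 1 or control replicate 3 (adjusted p = 0.0751 to 0.121).

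Its neighbour PIP2;3 (AT2G37180) had 131, 129 and 91.6 FPKM in BPA, 140.0, 142 and 114 in BPB and 182, 179 and 137 in BPE. The level in BPF was 85.9, 42.9 and 82.6, and the level in BPS 66.1, 35.7 and 48.9, against 65.1, 75.8 and 34.7 in control roots. BPE had the highest mean and overlapped BPB, while BPF and BPS overlapped control. On the log2 scale the change was 1.04 (95% interval 0.39 to 1.70, adjusted p = 0.0435) in BPA and 1.23 (95% interval 0.57 to 1.88, adjusted p = 0.00623) in BPB. In BPE it was 1.55 (95% interval 0.89 to 2.21, adjusted p = 0.0077), but -0.19 (95% interval -0.84 to 0.47, adjusted p = 0.717) in BPS. The BPA call was lost with no filter on low values, after median scaling, from the 6 libraries compared alone or without BPA replicate 1, BPA replicate 2, control replicate 1 or control replicate 3 (adjusted p = 0.0536 to 0.18). Of the level of both neighbours together, this gene made up 35.1%, 31.3% and 21.4% in the BPA libraries, 23.6%, 21.2% and 16.1% in BPB and 39.0%, 44.0% and 41.0% in BPE. The share was 27.0%, 18.8% and 20.1% in BPF and 17.4%, 9.46% and 11.7% in BPS, against 32.4%, 32.6% and 22.3% in control. BPE lay above the control range of this share and BPS below it, and a scaling of the libraries cannot move a share within a library.

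The 250 bases before each transcript start (RefSeq, TAIR10.1) are shown for the neighbouring genes, whose levels parted between BPE and BPS. Capitals mark AAACCA on either strand, a letter pattern named for anaerobic response elements.
PIP2;2 promoter, chr2:15615023-15615272, minus strand: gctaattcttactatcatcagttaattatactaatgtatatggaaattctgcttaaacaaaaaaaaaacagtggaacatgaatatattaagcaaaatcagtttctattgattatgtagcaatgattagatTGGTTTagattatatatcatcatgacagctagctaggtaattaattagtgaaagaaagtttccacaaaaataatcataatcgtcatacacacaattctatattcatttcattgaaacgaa
PIP2;3 promoter, chr2:15617385-15617634, plus strand: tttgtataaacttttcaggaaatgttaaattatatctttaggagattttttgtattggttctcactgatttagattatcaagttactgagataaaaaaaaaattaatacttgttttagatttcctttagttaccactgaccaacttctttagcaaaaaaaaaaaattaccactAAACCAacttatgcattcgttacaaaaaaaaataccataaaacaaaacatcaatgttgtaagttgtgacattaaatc
Each held 1 match. On both strands AAACCA occurred in 9 of the 35 aquaporin windows (25.7%), against 27.3% of 27365 windows of the same length. The G-box CACGTG was in 0 of 35 windows, against 6.50% of all, and ACGTGNC, a pattern of abscisic acid response elements that can overlap the G-box, in 1 of 35, the window of TIP1;1, against 8.58%.

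PIP2;5 (AT3G54820, chromosome 3, 20301759 to 20304309, plus strand), known for its rise under drought and cold, was lower where most other called PIP genes were higher. Its level was 21.8, 16.4 and 6.11 FPKM in BPA, 4.45, 5.61 and 5.12 in BPB and 31.2, 36.4 and 41.7 in BPE. BPF roots had 15.7, 16.5 and 6.51, and BPS roots 2.71, 5.80 and 8.09, against 35.3, 33.8 and 46.0 in control roots. BPA, BPB, BPF and BPS libraries all lay below control, and BPE libraries overlapped it. Limma gave a log2 change of -1.47 (95% interval -2.33 to -0.60, adjusted p = 0.0347) in BPA and -2.69 (95% interval -3.56 to -1.83, adjusted p = 0.000203) in BPB. BPS had -2.67 (95% interval -3.54 to -1.81, adjusted p = 0.00061). In BPF it was -1.59 (95% interval -2.45 to -0.72, adjusted p = 0.0666), and it passed without BPA, BPB and BPS replicates 3 together (adjusted p = 0.0131). In BPE it was -0.07 (95% interval -0.94 to 0.79, adjusted p = 0.922). The BPA call was lost with no filter on low values, from the 6 libraries compared alone, without BPA, BPB and BPS replicates 3 together or without BPA replicate 2, BPA replicate 3, control replicate 1, control replicate 2 or control replicate 3 (adjusted p = 0.0525 to 0.12). As a share of the 8 PIP2 genes it made up 2.12%, 1.42% and 0.506% in BPA, 0.287%, 0.358% and 0.282% in BPB and 3.20%, 3.57% and 4.63% in BPE. The share was 1.73%, 2.04% and 0.549% in BPF and 0.208%, 0.474% and 0.631% in BPS, against 5.18%, 4.64% and 7.33% in control.

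PIP2;4 (AT5G60660, chromosome 5, 24375368 to 24377206, minus strand), a water channel of roots that also passes hydrogen peroxide, was the single member called both higher and lower against control, in different compounds. It had 48.2, 38.2 and 77.1 FPKM in BPA, 51.4, 61.9 and 122 in BPB and 23.9, 18.1 and 30.3 in BPE. BPF libraries showed 75.7, 92.0 and 96.8, and BPS libraries 129, 151 and 122, against 75.5, 68.6 and 64.9 in control roots. BPE libraries lay below control, and BPF and BPS libraries above it. In log2 units the change was -1.52 (95% interval -2.13 to -0.90, adjusted p = 0.00614) in BPE and 0.93 (95% interval 0.31 to 1.54, adjusted p = 0.0328) in BPS. The BPS call was lost without BPS replicate 1, BPS replicate 2, BPS replicate 3, control replicate 1, control replicate 2 or control replicate 3 (adjusted p = 0.0545 to 0.103). BPA passed, as lower, without BPA, BPB and BPS replicates 3 together (adjusted p = 0.0239). PIP2;7 (AT4G35100) had 129, 145 and 253 FPKM in BPA, 186, 239 and 351 in BPB and 143, 138 and 162 in BPE. The level in BPF was 206, 250 and 269, and the level in BPS 323, 307 and 331, against 195, 189 and 206 in control roots. It rose by 0.70 (adjusted p = 0.0455) on the log2 scale in BPS, a call that was lost with no filter on low values, after median scaling or without BPS replicate 1, BPS replicate 2, BPS replicate 3, control replicate 1, control replicate 2 or control replicate 3 (adjusted p = 0.0638 to 0.114). It passed, as lower, in BPA without BPA, BPB and BPS replicates 3 together (adjusted p = 0.0229) and in BPE from the 6 libraries compared alone or without BPA, BPB and BPS replicates 3 together (adjusted p = 0.0283 to 0.033). PIP2;6 (AT2G39010) at 1.97 to 6.66 FPKM and PIP2;8 (AT2G16850) at 7.15 to 17.5 FPKM were called in no comparison with control.

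**Figure D3:**
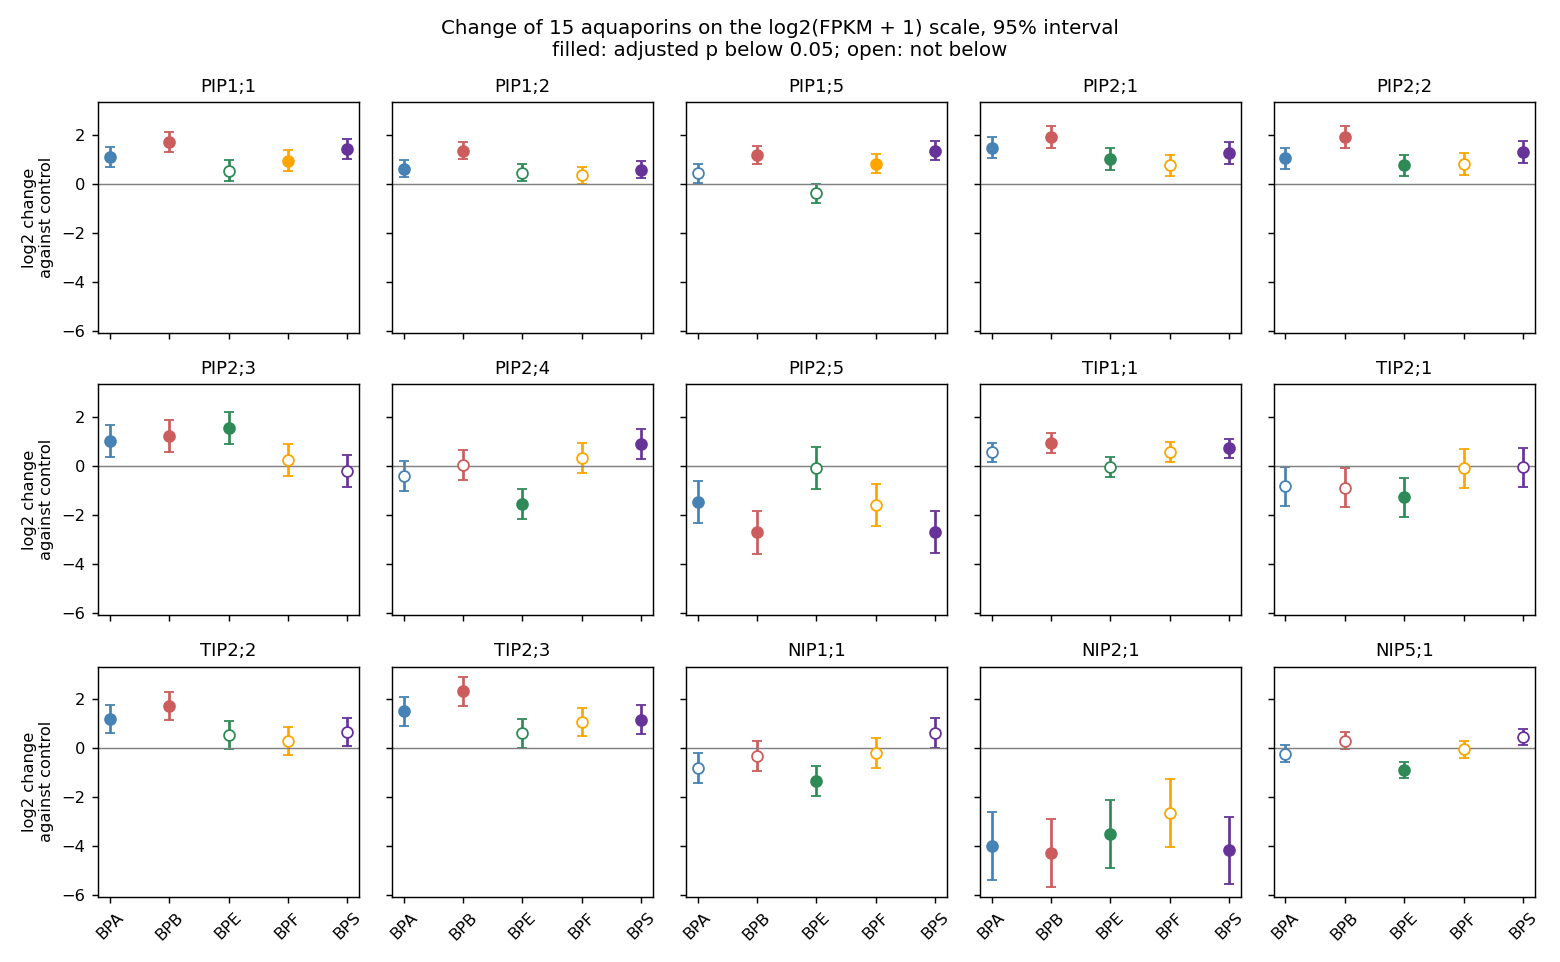
Change of 15 aquaporins against control (vertical axes, log2 scale of FPKM + 1) for each bisphenol (horizontal axes), with 95% intervals from limma and filled points where the adjusted p was below 0.05. NIP2;1 has the largest changes, -2.64 to -4.26, and PIP2;4 is filled below 0 in BPE and above 0 in BPS.

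The pair TIP1;1 (AT2G36830, chromosome 2, 15445294 to 15446621, plus strand) and TIP1;2 (AT3G26520, chromosome 3, 9722443 to 9723904, minus strand), the main water channels of the vacuole membrane, had the highest mean FPKM of the family. TIP1;1 had 548, 537 and 674 FPKM in BPA, 644, 707 and 996 in BPB and 366, 417 and 369 in BPE. For BPF it was 630.0, 483 and 669, and for BPS 653, 604 and 709, against 389.8, 459 and 340.0 in control roots. BPE overlapped control and the other groups lay above it. Its log2 change was 0.96 (95% interval 0.56 to 1.36, adjusted p = 0.00119) in BPB and 0.73 (95% interval 0.33 to 1.13, adjusted p = 0.0129) in BPS, where the BPS call was lost without control replicate 3 (adjusted p = 0.0571). BPF passed, as higher, without BPA, BPB and BPS replicates 3 together (adjusted p = 0.0347). TIP1;2 had 535, 524 and 817 FPKM in BPA, 734, 771 and 1305 in BPB and 505, 518 and 453 in BPE. BPF roots had 806, 790.1 and 923, and BPS roots 1058, 1297 and 1213, against 622, 626 and 557 in control roots. BPS libraries were high throughout, while in BPB replicate 3 stood far above the others. It rose by 0.98 (95% interval 0.51 to 1.45, adjusted p = 0.00599) in BPS and by 0.59 (95% interval 0.12 to 1.05, adjusted p = 0.0465) in BPB on the log2 scale, and the BPB call was lost with no filter on low values, after median scaling, from the 6 libraries compared alone, without BPA, BPB and BPS replicates 3 together or without BPB replicate 3, control replicate 1, control replicate 2 or control replicate 3 (adjusted p = 0.0734 to 0.198). In BPF it passed, as higher, without BPA, BPB and BPS replicates 3 together (adjusted p = 0.0366).

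Within the TIP2 group, whose members pass ammonia beside water, TIP2;2 and TIP2;3 were called higher and TIP2;1 lower, but in different compounds. TIP2;2 (AT4G17340, chromosome 4, 9698940 to 9700472, plus strand) had 266, 231 and 227 FPKM in BPA, 319, 355 and 388 in BPB and 176, 187 and 113 in BPE. In BPF it had 132, 85.5 and 204, and in BPS it had 143, 187 and 173, against 101, 138 and 84.5 in control roots. BPA, BPB and BPS libraries lay above control. It rose by 1.18 (95% interval 0.61 to 1.76, adjusted p = 0.0155) in BPA and 1.73 (95% interval 1.16 to 2.31, adjusted p = 0.000244) in BPB on the log2 scale, and the BPA call was lost without BPA replicate 2, control replicate 1 or control replicate 3 (adjusted p = 0.0649 to 0.0725). TIP2;3 (AT5G47450, chromosome 5, 19248249 to 19249622, minus strand) had 28.9, 33.6 and 37.4 FPKM in BPA, 52.6, 62.8 and 62.0 in BPB and 21.0, 19.3 and 12.6 in BPE. BPF libraries showed 21.6, 19.1 and 34.3, and BPS libraries 17.3, 37.1 and 27.0, against 8.43, 14.6 and 10.5 in control roots. BPE was the one group that overlapped control. The log2 change was 1.52 (95% interval 0.93 to 2.1, adjusted p = 0.00643) in BPA and 2.33 (95% interval 1.75 to 2.91, adjusted p = 3.85e-05) in BPB. For BPS it came to 1.17 (95% interval 0.59 to 1.76, adjusted p = 0.00787). Its rises in BPA and BPB were the largest of any TIP there. BPF passed, as higher, without BPA, BPB and BPS replicates 3 together (adjusted p = 0.0435).

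TIP2;1 (AT3G16240, chromosome 3, 5505360 to 5507050, plus strand), the most abundant of the 3 TIP2 genes in control roots, had 161, 120.1 and 324 FPKM in BPA, 105, 141 and 364 in BPB and 113, 143 and 148 in BPE. The level in BPF was 316, 315 and 289.9, and the level in BPS 292, 309.8 and 347, against 340.1, 297 and 334 in control roots. All BPE libraries and replicates 1 and 2 of BPA and BPB lay below control, whereas replicate 3 of BPA and of BPB did not. It fell by 1.27 (95% interval -2.06 to -0.47, adjusted p = 0.0369) in BPE on the log2 scale, a call that was lost with no filter on low values or without BPE replicate 1, BPE replicate 2, BPE replicate 3, control replicate 1, control replicate 2 or control replicate 3 (adjusted p = 0.055 to 0.129). In BPA the log2 change was -0.81 (adjusted p = 0.171) with all libraries and passed without BPA, BPB and BPS replicates 3 together or without BPA replicate 3 (adjusted p = 0.00216 to 0.0441). In BPB it was -0.88 (adjusted p = 0.0768), and it passed after median scaling, without BPA, BPB and BPS replicates 3 together or without BPB replicate 3 (adjusted p = 7.09e-05 to 0.0341). The same libraries differed in cell type markers. The 7 endodermis markers, all tested, summed to 204, 201 and 292 FPKM in BPA, 216, 198 and 380.0 in BPB and 174, 179 and 233 in BPE, against 247, 243 and 246 in control roots. The 6 root hair markers, all tested, summed to 85.9, 77.3 and 124 FPKM in BPA, 55.3, 48.2 and 194 in BPB and 63.4, 57.0 and 88.4 in BPE, against 246, 163 and 213 in control roots, and the part of either in the TIP2;1 values was not tested.

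Of the summed TIP2 level, that gene made up 35.3%, 31.2% and 55.1% in BPA, 22.0%, 25.2% and 44.7% in BPB and 36.4%, 41.0% and 54.0% in BPE. The share was 67.3%, 75.1% and 54.9% in BPF and 64.5%, 58.0% and 63.4% in BPS, against 75.7%, 66.1% and 77.8% in control. All libraries of BPA, BPB, BPE and BPS lay below the control range of this share.

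**Figure D4:**
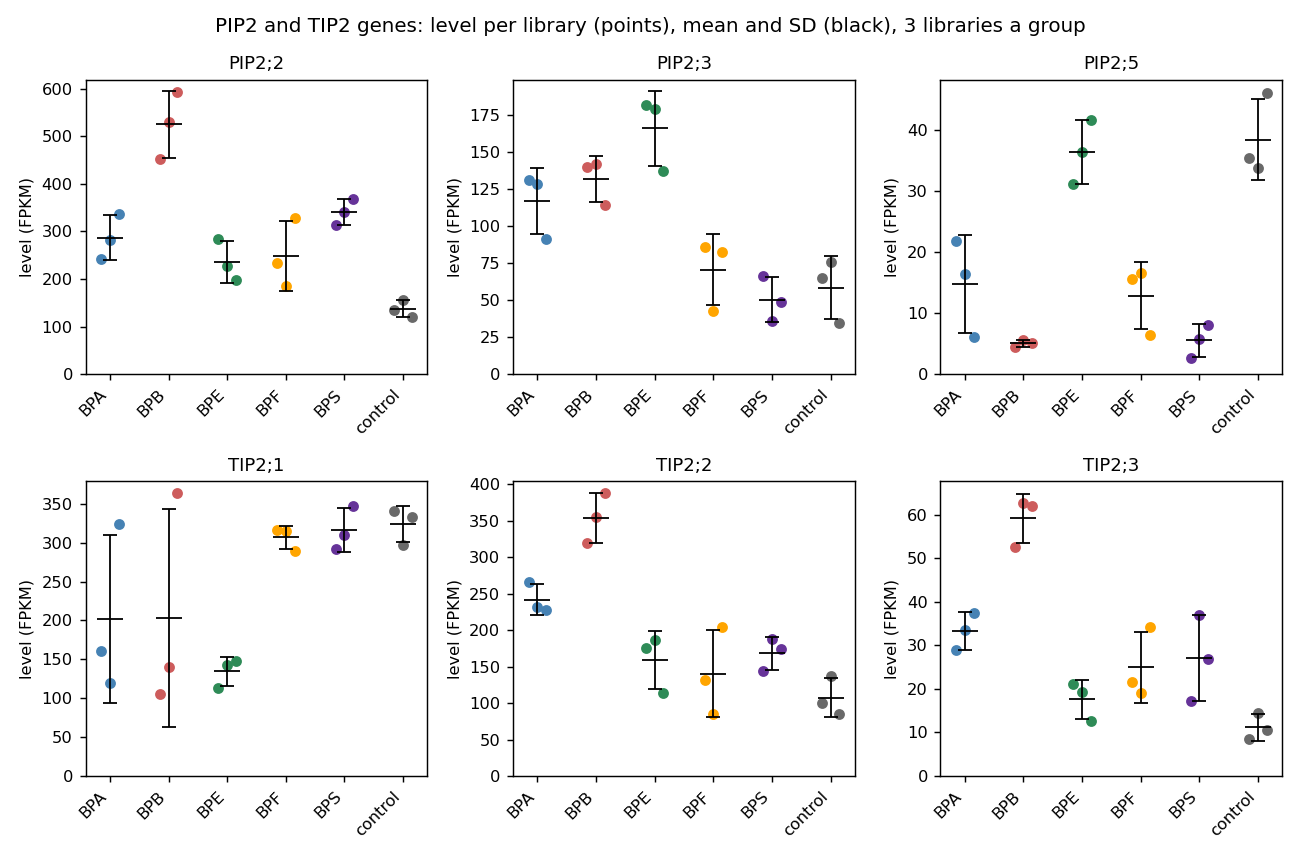
FPKM per library (vertical axes, each from 0) of 3 PIP2 and 3 TIP2 genes by group (horizontal axes, bisphenol groups left of control), with the mean and SD of 3 libraries in black. PIP2;3 has its highest mean in BPE and PIP2;5 is near the control level there, and replicate 3 of BPA and of BPB lies at 324 and 364 FPKM for TIP2;1, far above the other 2 libraries of its group.

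TIP1;3 (AT4G01470), known for its expression in pollen, was low and listed above 0 in 14 of the 18 libraries, with 0.467, 0 and 3.03 FPKM in BPA, 0.579, 0 and 3.05 in BPB and 0, 0 and 1.19 in BPE. BPF roots had 2.77, 7.30 and 4.48, and BPS roots 6.04, 15.8 and 5.75, against 3.59, 2.86 and 5.54 in control roots. BPE lay below the control range and BPS above it. On the log2 scale the change was -1.91 (95% interval -3.13 to -0.69, adjusted p = 0.0393) in BPE, and that call was lost with no filter on low values or without BPE replicate 1, BPE replicate 2, control replicate 1, control replicate 2 or control replicate 3 (adjusted p = 0.0516 to 0.16). In BPA it was -1.43 (adjusted p = 0.116) and passed without BPA, BPB and BPS replicates 3 together or without BPA replicate 3 (adjusted p = 0.0103 to 0.0382), and in BPB it was -1.39 (adjusted p = 0.0686) and passed after median scaling, without BPA, BPB and BPS replicates 3 together or without BPB replicate 3 (adjusted p = 0.00448 to 0.0463). TIP4;1 (AT2G25810), at 24.2 to 75.1 FPKM, was called in no comparison with control. It passed, as lower, in BPA without BPA, BPB and BPS replicates 3 together (adjusted p = 0.0198), in BPB without BPA, BPB and BPS replicates 3 together (adjusted p = 0.0404) and in BPE from the 6 libraries compared alone or without BPA, BPB and BPS replicates 3 together (adjusted p = 0.0237 to 0.0491).

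NIP2;1 (AT2G34390, chromosome 2, 14514487 to 14515988, minus strand), a lactic acid channel whose transcript accumulates when roots lack oxygen, showed the largest change of the family. It had 4.06, 2.42 and 1.86 FPKM in BPA, 2.13, 2.43 and 1.53 in BPB and 1.54, 4.65 and 8.56 in BPE. In BPF it had 8.51, 29.6 and 1.74, and in BPS it had 2.50, 2.04 and 2.17, against 88.0, 34.9 and 59.1 in control roots. No bisphenol library reached the control range, and BPF replicate 2 came nearest. Limma gave a log2 change of -3.97 (95% interval -5.35 to -2.60, adjusted p = 0.00535) in BPA and -4.26 (95% interval -5.64 to -2.89, adjusted p = 0.000211) in BPB. It was -3.48 (95% interval -4.86 to -2.11, adjusted p = 0.0056) in BPE and -4.16 (95% interval -5.53 to -2.78, adjusted p = 0.000705) in BPS, calls that were kept in every alternative run. BPF had -2.64 (95% interval -4.01 to -1.26, adjusted p = 0.0578), not past the threshold, and it passed without BPA, BPB and BPS replicates 3 together or without BPF replicate 2 (adjusted p = 0.0176 to 0.0392). An opposite-strand gene, AT2G34380, overlaps it by 30 of its 1502 bases and had mean levels of 4.95 to 6.18 FPKM in the bisphenol groups, against 6.90 FPKM in control roots. The library kit kept strand but no source says that counting used it, so the residual low values are uncertain. The annotation also places AT2G08660 opposite to 1432 of these bases, a gene not analysed here.

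The 250 bases before its transcript start are shown, since AAACCA, in capitals on either strand, is the pattern of anaerobic response elements.
NIP2;1 promoter, chr2:14515989-14516238, minus strand: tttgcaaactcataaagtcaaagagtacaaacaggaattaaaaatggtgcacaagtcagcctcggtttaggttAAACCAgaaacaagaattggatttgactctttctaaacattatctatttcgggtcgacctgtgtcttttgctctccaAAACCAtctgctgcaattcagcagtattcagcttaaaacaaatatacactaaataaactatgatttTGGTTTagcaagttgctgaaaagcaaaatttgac
There were 3 matches, at -177, -100 and -34 from the transcript start. Of the 27365 windows 265 (0.968%) held at least 3.

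Genes of the low-oxygen response were also called lower in BPA, BPB, BPE and BPS roots. The summed level of 12 such genes was 202, 163 and 160.0 FPKM in BPA, 132, 99.5 and 169 in BPB and 248, 464 and 426 in BPE. BPF libraries showed 399, 1103 and 221, and BPS libraries 238, 247 and 301, against 1059.9, 637 and 1049 in control roots. BPF replicate 2, the library with the most NIP2;1 transcript among the bisphenol libraries, also had the highest sum, and BPF alone overlapped control. Of the 12, 8 fell in BPA, 10 in BPB, 3 in BPE, 0 in BPF and 6 in BPS, and none rose against control. Of all loci, 3.83% fell in BPA, 11.1% in BPB, 5.2% in BPE, 0.677% in BPF and 8.71% in BPS. At an unadjusted p below 0.05, 2 were lower and 1 higher in BPF. The median log2 change of the list was -1.74 in BPA, -1.69 in BPB, -1.21 in BPE, -0.62 in BPF and -1.30 in BPS, beside the medians of all loci given above. The alcohol dehydrogenase gene ADH1 (AT1G77120) had 24.9 ± 8.78 FPKM in BPA, 16.4 ± 9.08 FPKM in BPB, 127 ± 39.4 FPKM in BPE, 92.1 ± 82.0 FPKM in BPF and 29.8 ± 11.7 FPKM in BPS, against 313 ± 99.3 FPKM in control roots. Its log2 change was -4.28 (95% interval -5.60 to -2.96, adjusted p = 0.000154) in BPB. The pyruvate decarboxylase gene PDC1 (AT4G33070) averaged 4.54 ± 1.81 FPKM in BPB and 144 ± 51.2 FPKM in control roots, a log2 change of -4.68 (95% interval -6.15 to -3.21, adjusted p = 0.000171). LBD41 (AT3G02550), a transcription factor gene of the low-oxygen response, averaged 12.2 ± 5.87 FPKM in BPB and 152 ± 25.3 FPKM in control roots, a log2 change of -3.61 (95% interval -4.69 to -2.53, adjusted p = 0.000124). How the list and the NIP2;1 values depend on each other was not tested. The list was chosen with earlier results of these data known, so its counts are a description and no independent support.

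**Figure D5:**
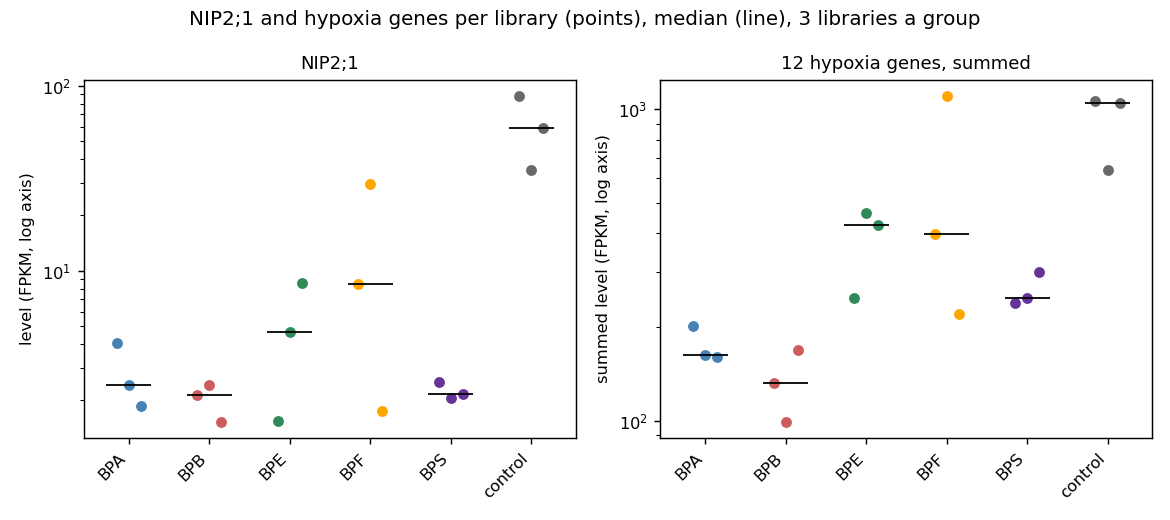
FPKM of NIP2;1 (left) and summed FPKM of 12 hypoxia genes (right) per library on log axes, by group (horizontal axes, bisphenol groups left of control), with a line at the median of 3 libraries. NIP2;1 lies at 1.53 to 29.6 FPKM in the bisphenol libraries and at 34.9 to 88.0 FPKM in control, and BPF replicate 2 is the highest bisphenol library in both plots.

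NIP5;1 (AT4G10380, chromosome 4, 6431161 to 6435396, minus strand), the boric acid importer of the root surface, had 49.4, 62.8 and 62.5 FPKM in BPA, 78.5, 82.1 and 93.0 in BPB and 29.3, 38.4 and 42.6 in BPE. The level in BPF was 58.3, 73.9 and 66.1, and the level in BPS 76.7, 111 and 95.4, against 68.7, 64.4 and 69.4 in control roots. BPE libraries were the lowest, BPA lay just below control, and BPB and BPS lay above it. It fell by 0.87 (95% interval -1.21 to -0.53, adjusted p = 0.00522) in BPE on the log2 scale. In BPS the log2 change was 0.46 (95% interval 0.12 to 0.80, adjusted p = 0.0519), and it passed without BPS replicate 1 (adjusted p = 0.0198). The boron exporters, which carry borate out of root cells toward the xylem or the soil, were set beside it. Of the 7 genes 4 were tested, and 1 rose in BPA, 2 in BPB, 1 in BPE, 0 in BPF and 1 in BPS, with none lower. Of all loci, 6.57% rose in BPA, 25.5% in BPB, 9.08% in BPE, 0.708% in BPF and 12.3% in BPS. In BPF 1 had an unadjusted p below 0.05. BOR2 (AT3G62270) averaged 28.3 ± 6.81 FPKM in BPA, 52.7 ± 2.26 FPKM in BPB, 12.2 ± 2.29 FPKM in BPE, 19.8 ± 6.52 FPKM in BPF and 39.6 ± 5.67 FPKM in BPS, against 10.1 ± 1.86 FPKM in control roots. Its log2 change was 1.38 (95% interval 0.90 to 1.87, adjusted p = 0.00556) in BPA and 2.29 (95% interval 1.80 to 2.77, adjusted p = 1.63e-05) in BPB. In BPS it was 1.87 (95% interval 1.38 to 2.36, adjusted p = 0.000179). BOR1 (AT2G47160) changed by 0.81 (95% interval 0.20 to 1.41, adjusted p = 0.0369) in BPB and BOR4 (AT1G15460) by 0.74 (95% interval 0.27 to 1.21, adjusted p = 0.039) in BPE.

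NIP1;1 (AT4G19030, chromosome 4, 10421521 to 10423508, minus strand), which passes arsenite and antimonite, had 40.5, 44.3 and 67.5 FPKM in BPA, 58.8, 58.8 and 104 in BPB and 40.0, 28.5 and 34.2 in BPE. For BPF it was 62.9, 118 and 60.9, and for BPS 117, 171 and 126, against 83.2, 74.4 and 108 in control roots. BPA and BPE lay below control and BPS above it. In log2 units the change was -1.34 (95% interval -1.95 to -0.73, adjusted p = 0.0106) in BPE, a call that was lost without BPE replicate 2 or control replicate 3 (adjusted p = 0.0529 to 0.0667). In BPA it was -0.81 (adjusted p = 0.0802) and passed without BPA, BPB and BPS replicates 3 together or without BPA replicate 3 (adjusted p = 0.0181 to 0.0448). NIP1;2 (AT4G18910), a carrier of the aluminium-malate complex, had 19.7, 11.1 and 10.5 FPKM in BPE, against 7.20, 7.58 and 6.78 in control roots, and rose by 0.80 (adjusted p = 0.0434) on the log2 scale, where BPE replicate 1 was the highest library. That call was lost with no filter on low values or without BPE replicate 1, BPE replicate 2, control replicate 1, control replicate 2 or control replicate 3 (adjusted p = 0.062 to 0.188). NIP3;1 (AT1G31885), which also passes arsenite, had 7.17, 6.43 and 8.18 FPKM in BPB, against 4.12, 4.86 and 4.27 in control roots, and rose by 0.61 (adjusted p = 0.0212), a call that was lost after median scaling, without BPA, BPB and BPS replicates 3 together or without BPB replicate 3, control replicate 1 or control replicate 3 (adjusted p = 0.0598 to 0.0898). It passed, as higher, in BPE from the 6 libraries compared alone (adjusted p = 0.047) and in BPS without BPS replicate 1 (adjusted p = 0.0441). NIP6;1 (AT1G80760), at 1.08 to 7.79 FPKM, was called in no comparison with control, and AT1G80750 on the opposite strand, which overlaps it by 26 bases, averaged 73.6 FPKM.

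Among the SIP genes, SIP1;1 (AT3G04090) at 59.6 to 81.1 FPKM and SIP2;1 (AT3G56950) at 23.6 to 45.3 FPKM were called in no comparison with control. The opposite-strand gene AT3G56940 overlaps SIP2;1 by 147 of its 1629 bases. It averaged 25.3 FPKM in BPB and 14.8 FPKM in BPS, against 4.44 FPKM in control roots, so SIP2;1 levels are uncertain to that extent. SIP1;1 passed, as lower, in BPB after median scaling, without BPA, BPB and BPS replicates 3 together or without BPB replicate 3 (adjusted p = 0.00935 to 0.0152), and SIP2;1, as lower, in BPE without BPA, BPB and BPS replicates 3 together (adjusted p = 0.0491). SIP1;2 (AT5G18290, chromosome 5, 6055028 to 6058368, minus strand) was low, with 1.80, 1.60 and 1.64 FPKM in BPA, 2.51, 3.39 and 2.49 in BPB and 1.76, 1.41 and 1.51 in BPE. BPF roots had 1.92, 2.71 and 2.89, and BPS roots 2.74, 4.94 and 3.51, against 1.21, 1.57 and 1.38 in control roots. BPE was the one group that overlapped control. The log2 change was 0.67 (95% interval 0.31 to 1.02, adjusted p = 0.00618) in BPB and 0.96 (95% interval 0.61 to 1.32, adjusted p = 0.00137) in BPS. AT5G18300 overlaps this gene by 444 of its 3341 bases on the opposite strand and averaged 3.16 FPKM in BPB and 3.89 FPKM in BPS, against 1.20 FPKM in control roots, so the levels are uncertain to that extent.

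The 6 members below the filter are known mainly from seeds and pollen. NIP4;1 (AT5G37810) was listed at 0 in all 18 libraries, and TIP5;1 (AT3G47440) was above 0 in 2 of them, at most 0.168 FPKM. The seed vacuole channels TIP3;1 (AT1G73190) and TIP3;2 (AT1G17810) reached 1.28 and 0.280 FPKM, both overlapped by opposite-strand genes at higher levels. NIP7;1 (AT3G06100) reached 0.401 FPKM and NIP4;2 (AT5G37820) 2.07 FPKM, its highest values lying in BPB replicate 3 and BPS replicate 3.

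Regulators of the PIP proteins were followed as a list of 14 genes, all tested, for kinases, trafficking proteins, ubiquitin ligases and root hydraulic regulators. In BPA 1 rose and 1 fell, in BPB 5 rose and 3 fell, in BPE 4 rose and 0 fell, in BPF 0 changed (4 had an unadjusted p below 0.05), and in BPS 3 rose and 2 fell. Called either way were thus 2 of 14 in BPA, 8 in BPB, 4 in BPE, 0 in BPF and 5 in BPS, against 10.4%, 36.6%, 14.3%, 1.39% and 21% of all loci in that order. The list's median log2 change was 0.21, 0.19, 0.17, 0.16 and -0.07 in the same order. XND1 (AT5G64530), a transcription factor gene that lowers root water conductivity, averaged 2.14 ± 1.19 FPKM in BPA, 2.25 ± 0.380 FPKM in BPB, 9.76 ± 0.739 FPKM in BPE, 3.73 ± 1.05 FPKM in BPF and 4.67 ± 1.98 FPKM in BPS, against 8.92 ± 1.62 FPKM in control roots. Its log2 change was -1.72 (95% interval -2.32 to -1.11, adjusted p = 0.00555) in BPA and -1.60 (95% interval -2.20 to -1.0, adjusted p = 0.000616) in BPB. BPS had -0.87 (95% interval -1.47 to -0.26, adjusted p = 0.0417). TSPO (AT2G47770), a membrane protein that takes the channel PIP2;7 to degradation, averaged 7.26 ± 4.52 FPKM in BPE, 1.23 ± 0.686 FPKM in BPA and less in the other groups, against 0.259 ± 0.276 FPKM in control roots. It passed the filter on low values through BPE alone, so no test of it is given, and it is 1 of the 4 regulators counted as rising in BPE. HCR1 (AT3G24715), a kinase gene of root conductivity under low oxygen, changed by 0.74 (95% interval 0.35 to 1.13, adjusted p = 0.00545) in BPB and 1.02 (95% interval 0.63 to 1.41, adjusted p = 0.00166) in BPS.

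The 5 compounds share a pair of phenol rings and differ in the bridge between them. The bridging carbon bears a pair of methyl groups in BPA, a single methyl group in BPE and no such group in BPF. In BPB one methyl of the BPA bridge is an ethyl group, and in BPS a sulfonyl group takes the place of the carbon. All 10 pairs were tested from the same fit, adjusted within each pair, and since the dose of each library is not given, a difference of compound and one of dose cannot be told apart. The pairs that share a compound are not independent. BPS and BPE differed most. In BPS 16 members were higher and 2 lower than in BPE (62.1%), against 39.4% of all loci (20.8% higher and 18.6% lower). TIP1;3 differed by 2.84 (95% interval 1.62 to 4.06, adjusted p = 0.00167) on the log2 scale, PIP2;5 by -2.60 (95% interval -3.47 to -1.74, adjusted p = 0.000384), PIP2;4 by 2.45 (95% interval 1.83 to 3.06, adjusted p = 0.000112) and NIP1;1 by 1.97 (95% interval 1.36 to 2.58, adjusted p = 0.000258). BPE had 1 member higher and 14 lower than BPB (51.7%), against 31.3% of all loci (11.7% higher and 19.6% lower), with PIP2;5 at 2.62 (95% interval 1.76 to 3.49, adjusted p = 0.000465) and TIP2;3 at -1.72 (95% interval -2.30 to -1.13, adjusted p = 0.000559).

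BPF and BPE, whose bridges differ by a methyl group, differed at 10 members, 8 higher and 2 lower in BPF (34.5%), against 16% of all loci (6.64% higher and 9.31% lower). With PIP2;4 the difference was 1.85 (95% interval 1.24 to 2.46, adjusted p = 0.00635). Without BPE replicate 1 or BPF replicate 2 the count was 2, and it was 3 without BPE replicate 2, 5 without BPF replicate 3 and 6 without BPE replicate 3. BPB and BPA, which differ by a methyl against an ethyl group, differed at 4 members, all higher in BPB (13.8%), against 9.94% of all loci (5.53% higher and 4.41% lower), with PIP2;2 at 0.87 (95% interval 0.43 to 1.31, adjusted p = 0.0181). The count was 0 without BPA replicate 1, 1 without BPA replicate 2 or BPB replicate 2, 2 without BPB replicate 3 and 9 without BPA replicate 3, and 0 from the 6 libraries alone. BPE and BPA, which differ by a methyl group, differed at 2 members, both lower in BPE (6.90%), against 2.63% of all loci (1.84% higher and 0.79% lower), with PIP1;5 at -0.82 (95% interval -1.20 to -0.43, adjusted p = 0.0322) and NIP5;1 at -0.66 (95% interval -1.0 to -0.32, adjusted p = 0.0434). Both were lost in several alternatives, among them without BPA replicate 2, BPA replicate 3, BPE replicate 1 or BPE replicate 2, where the count was 0. For the reruns of these pairs the shares of all loci are not given, so the moves in the counts are not shown to be particular to aquaporins.

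In BPS 11 members were higher and 1 lower than in BPA (41.4%), against 18.2% of all loci (10.4% higher and 7.88% lower), with TIP1;3 at 2.36 (95% interval 1.14 to 3.58, adjusted p = 0.0148) and NIP1;1 at 1.44 (95% interval 0.83 to 2.05, adjusted p = 0.00739). The count was 3 without BPA replicate 1, 4 without BPA replicate 2 or BPS replicate 2, and 0 from the 6 libraries alone. BPF had 0 members higher and 7 lower than BPB (24.1%), against 28% of all loci (7.79% higher and 20.2% lower), led by TIP2;2 at -1.41 (95% interval -1.98 to -0.84, adjusted p = 0.00264), and after median scaling 3 were higher and 6 lower. BPS and BPB differed at 5 members, 1 higher and 4 lower in BPS (17.2%), against 9.24% of all loci (2.65% higher and 6.58% lower), with TIP1;3 at 2.32 (95% interval 1.1 to 3.54, adjusted p = 0.0309) and PIP2;3 at -1.41 (95% interval -2.07 to -0.76, adjusted p = 0.026). That count was 0 without BPB replicate 1, BPB replicate 2 or BPS replicate 2, 3 without BPS replicate 1 and 14 without BPB replicate 3. No member was called between BPF and BPA by limma, against 0.0667% of all loci (0.0513% higher and 0.0154% lower), though 9 members had an unadjusted p below 0.05, and none between BPS and BPF, against 3.04% of all loci (1.05% higher and 2% lower), though 13 members had one. For PIP2;1 the log2 difference was -0.73 (95% interval -1.17 to -0.29, adjusted p = 0.28) between BPF and BPA and 0.52 (95% interval 0.07 to 0.96, adjusted p = 0.182) between BPS and BPF. For NIP2;1 it was -1.52 (95% interval -2.90 to -0.14, adjusted p = 0.205) between BPS and BPF. These intervals do not show that the compounds act alike. Shares of all loci are not given for the reruns here either.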

How the data were processed

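RNA of Arabidopsis roots was measured in 18 libraries, 3 for each of BPA, BPB, BPE, BPF, BPS and DMSO control, grouped by the titles of the samples. Per the file headers, the authors deposited gene levels as FPKM for 33602 loci, 1 table per library. Per the labels' protocols, the libraries were strand-specific preparations of messenger RNA. The build TAIR10 and the tools StringTie 1.3.0, HISAT2 2.0.4 and edgeR are named in the submitters' processing notes. Their roles and settings are not given in the sources used here. FPKM columns summed to 585990 to 614991. Between 56.5% and 63.3% of low values were whole fragments within 0.02, too few for a count test, so none was run. Intervals cover the spread between libraries, and fragment numbers cover counting error only.

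The 35 members were matched by locus identifier, with the family's usual names. Members and lists were chosen with earlier results of these data known. The deposited FPKM values were analysed as log2(FPKM + 1), which understates changes of low genes. The 19484 loci with a mean of at least 1 FPKM were fitted with limma 3.58.1 (limma-trend, 1 coefficient per group, all 18 libraries) in R 4.3.3, tested on simulated data first. Changes are compound minus control, or between compounds in the order named. P-values are two-sided, adjusted by Benjamini-Hochberg over all tested loci within a comparison and called below 0.05. The text gives values per library for the 12 members of highest mean FPKM and for the members called against control. For PIP1;4, NIP1;2 and NIP3;1 it gives them only in control and in the group where the gene was called. Of each other list it gives up to 3 genes by smallest adjusted p. The labels name no batch. Same-numbered libraries of BPA and control deviated together (correlations 0.295, 0.296 and 0.419), the only comparison with all 3 over 0.1. Those of BPS and BPB had 0.584, -0.038 and 0.648. The replicate number was tried as a block in every comparison, and in BPA against control it changed no call of a member. Against control it added calls of PIP2;8, TIP1;3 and TIP2;1 in BPB and of PIP2;8 and NIP5;1 in BPS. No 2 libraries held identical values.

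Coordinates, coding sequences (the longest RefSeq product per locus) and promoters came from TAIR10.1, since the files hold no coordinates, and 32835 loci matched it by name. Identities are over aligned bases without gaps (Biopython 1.88). Protein sequences were not used here.

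Alternatives were log2(FPKM + 0.1), no filter on low values, scaling of libraries to a common median, no intensity trend, the replicate block, only the 6 libraries compared, leaving out BPA, BPB and BPS replicates 3 together, and leaving out each library of the groups compared in turn.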

Additional observations from a re-analysis of the deposited data

How the results depend on the processing

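Each comparison with control was rerun for the members under every alternative, and none of the 51 called changes of members reversed its sign. Of them 30 kept their call in every alternative, and of 663 reruns 100 lost it, 77 of these with 1 library left out, 8 with no filter on low values, 5 after median scaling, 5 from the 6 libraries alone and 5 without BPA, BPB and BPS replicates 3 together. Leaving out 1 library gave 5 to 11 called members in BPA, 12 to 15 in BPB, 4 to 9 in BPE, 0 to 2 in BPF and 9 to 15 in BPS against control. Between compounds it gave 0 to 9 for BPB against BPA, 0 to 3 for BPE against BPA, 3 to 15 for BPS against BPA, 0 to 14 for BPS against BPB, 2 to 8 for BPF against BPE and 0 to 2 for BPS against BPF. Without replicate 3 of BPA, BPB and BPS together, 14 members were called in BPA (7 higher and 7 lower) and 9 in BPF (7 higher and 2 lower) against control, the count in BPF with the same BPF and control libraries and a spread estimated from fewer others. The same alternative gave 7 for BPB against BPA, 0 for BPE against BPA, 6 for BPF against BPA, 13 for BPF against BPB, 14 for BPS against BPB and 2 for BPS against BPF. Shares of all loci under the alternatives are not given here, so these counts are not shown to be particular to aquaporins. From the 6 libraries compared alone, 1 was called in BPF against control, and 0 for BPB against BPA, BPE against BPA, BPS against BPA and BPS against BPB, with fewer libraries behind the spread. With no filter on low values, 1 was called in BPF against control and 1 for BPE against BPA. With the replicate block, 1 was called for BPS against BPF, 18 in BPB and 17 in BPS against control, and outside BPA the numbers are not shown to pair the libraries. Median scaling moved the mean SIP sum of control to 116 FPKM. Except where given, the cause of a change was not tested. Alternatives were not run for the genes of the other lists. At 1 FPKM on 1.5 kb a library held 23.8 to 33.2 fragments, so changes of members near the filter are the least certain.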
